A study of Mus musculus with 9 samples.

Results

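The aorta of male C57BL/6J mice given a high fat diet together with exercise training (HE) was compared with that of mice of the same strain and sex on a normal diet (ND). The 2 groups differ in both diet and training, so the comparison takes in the combined effect. Its members are the 3 HE and 3 ND arrays, 6 of the 9 arrays in the series, chosen by the sample titles. The other 3 arrays are from mice on the high fat diet without training (HF); they entered the fit to estimate the spread, and their levels are given side by side. The intervention lasted 12 weeks, the training bouts are labelled 60 min, and the mice were fasted overnight before the aorta was taken a day after the last bout. Each group was formed from 8 mice, 24 in all, and the labels do not say which animal or animals gave each array, and the p-values reflect how far arrays of a group lie apart. The sample labels name whole aorta, while the study's design text speaks of aortic endothelium.

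The aortic wall consists of an endothelial lining, layers of smooth muscle and an outer coat of fibroblasts, fat, nerve and small vessels. Fat-rich food in this inbred strain leads to weight gain and loss of insulin sensitivity, and insulin acts on the endothelium through the kinases PDK1 and Akt to release nitric oxide. Long non-coding RNAs are transcripts without a protein product. Many start at the promoters of protein-coding genes and run away from them on the opposite strand, and others host small nucleolar RNAs or microRNAs. The array carries probes for both messenger and long non-coding RNA, and each probe reads 60 bases of a transcript.

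The files name no gene for any probe. A probe was therefore placed where its bases are found without a mismatch in the window from 250 bases before to 50 bases after the start of a RefSeq gene (GRCm38.p6), with at least 30 bases at an end of the probe inside the window. This placed 725 of 91188 probes at 1 position, 395 of which were tested, and a placed probe is called here by the gene of that window and the strand it reads. The window gene is not always the gene measured, because promoters hold other transcripts. The probes below are shown because the results turn on them and the gene name alone does not say what they read. Capitals mark the bases that lie inside the window or, for the last 2, inside the microRNA hairpin. All are written as on the array, 5′ to 3′. Taken as a whole, the array reads mostly in the sense of the transcript. The polyadenylation letters AATAAA occur in 10.9% of all probes and their reverse complement TTTATT in 3.97%. The shares depend on the start of the probe name, at 16.4% and 4.14% for A_55_P but 3.7% and 2.94% for A_30_P. Several probes below, such as those opposite to Snhg3 and Plxna2, are A_30_P probes, for which the letters say little about the strand.
Snhg3 window, opposite strand, chr4:132353637-132353677, plus strand: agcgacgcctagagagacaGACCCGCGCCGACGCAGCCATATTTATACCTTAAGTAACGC
Plxna2 window, opposite strand, chr1:194619579-194619619, minus strand: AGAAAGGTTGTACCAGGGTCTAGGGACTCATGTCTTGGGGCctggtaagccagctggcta
Fbxl18 window, opposite strand, chr5:142895285-142895344, plus strand: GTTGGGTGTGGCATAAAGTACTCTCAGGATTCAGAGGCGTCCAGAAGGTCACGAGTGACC
Ranbp17 window, same strand, chr11:33513928-33513987, minus strand: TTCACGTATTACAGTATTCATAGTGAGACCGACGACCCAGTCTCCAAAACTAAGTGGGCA
Gm46340 window, opposite strand, chr12:22448620-22448679, plus strand: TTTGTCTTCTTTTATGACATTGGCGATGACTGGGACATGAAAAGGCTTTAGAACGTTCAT
Gm13421 window, opposite strand, chr2:27540415-27540474, minus strand: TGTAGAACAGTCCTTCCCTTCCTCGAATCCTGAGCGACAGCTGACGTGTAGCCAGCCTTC
Meg3 window, same strand, chr12:109545148-109545184, plus strand: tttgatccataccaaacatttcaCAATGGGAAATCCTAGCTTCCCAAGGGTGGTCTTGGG
Mir410 hairpin, same strand: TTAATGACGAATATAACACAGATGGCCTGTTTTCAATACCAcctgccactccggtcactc
Mir6516 hairpin, same strand: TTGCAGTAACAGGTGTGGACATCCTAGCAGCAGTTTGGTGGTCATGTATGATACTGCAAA

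Of 43947 probes in limma's moderated test, 0 (0.0%) passed an adjusted p of 0.05. The smallest adjusted p was 0.156, shared by 68 probes. An unadjusted p under 0.05 was found for 6468 probes, 14.7% of those tested where chance gives 2197, with 7.83% higher and 6.89% lower in HE. For 20.5% of the probes every HE array lay on one side of all ND arrays, above them for 10.4% and below for 10.1%. A difference at an unadjusted p under 0.05 of at least 2-fold was found for 0.63% higher and 0.678% lower. Levels are given on the log2 scale with the 75th percentile of each array at 0, the median standard deviation of a probe was 0.191 in ND and 0.189 in HE, and the number of arrays limits the precision. None of the differences below passed the adjusted threshold, and each is given as a measured difference.

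**Figure D1:**
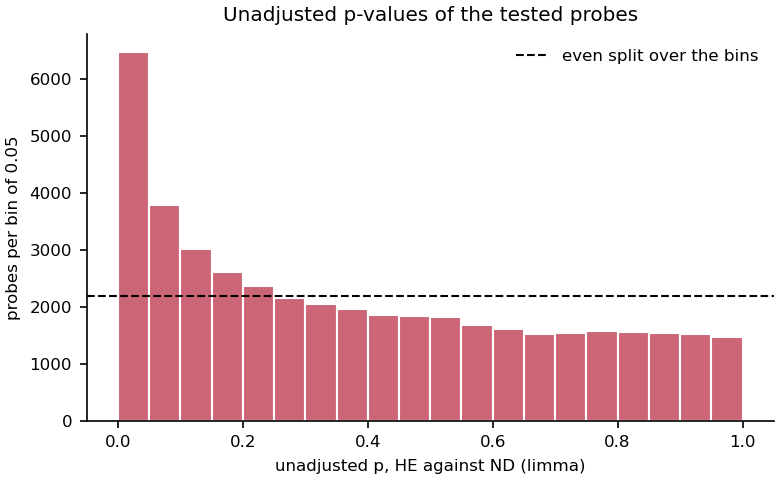
The bars count tested probes in bins of 0.05 of the unadjusted limma p for HE against ND, and the dashed line shows an even split of the 43947 probes over the bins. The first bin holds 6468 probes, against 2197 for an even split.

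No slide held both groups. Slide 1 carried the 3 ND arrays and HF replicate 1, slide 2 carried HF replicates 2 and 3 with HE replicates 1 and 2, and slide 3 carried HE replicate 3 alone, so slide and group cannot be told apart directly. A fit with slide as a block links ND to HE through HF alone, and under it 1329 probes were higher and 2089 lower at an unadjusted p under 0.05. HE replicate 2 had the fewest probes well above background, 36.6% against 41.1% to 48.9% on the other arrays, and its Agilent spike-in slope was 0.981 against 0.778 to 0.841. Without it 2366 probes were higher and 1926 lower. The defining markers of endothelium, smooth muscle, fibroblasts, fat, muscle, nerve and immune cells could not be checked, since 1 blood marker and 1 muscle gene were the only marker-list genes with a placed probe.

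Among the 395 tested placed probes, 45 (11.4%) were higher and 22 (5.57%) lower in HE at an unadjusted p under 0.05, beside 7.83% and 6.89% of all probes. The median log2 difference was 0.0279, and it was -0.0174 over all tested probes. Probes on the strand opposite to the window gene were higher in 26 of 200 cases (13%) and lower in 16 (8.0%). Probes on the same strand were higher in 19 of 195 (9.74%) and lower in 6 (3.08%). Where the window gene is a long non-coding RNA gene, 18 of 141 were higher and 9 lower, and where it is protein-coding, 27 of 254 were higher and 13 lower. The following probes, 12 for each direction, were ranked by unadjusted p among placed probes whose difference was 0.58 (log2) or more and which were well above background on all 3 arrays of the group where they are higher. The groups did not overlap for 11 of 12 higher and 11 of 12 lower ones, beside 10.4% and 10.1% of all tested probes, and the ranking by p favours such probes. Scaling to the E1A spike-in probes shifts all differences by about the same amount and gave 0.13 to 0.89 for the higher and -2.16 to -1.08 for the lower ones.

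**Figure D2:**
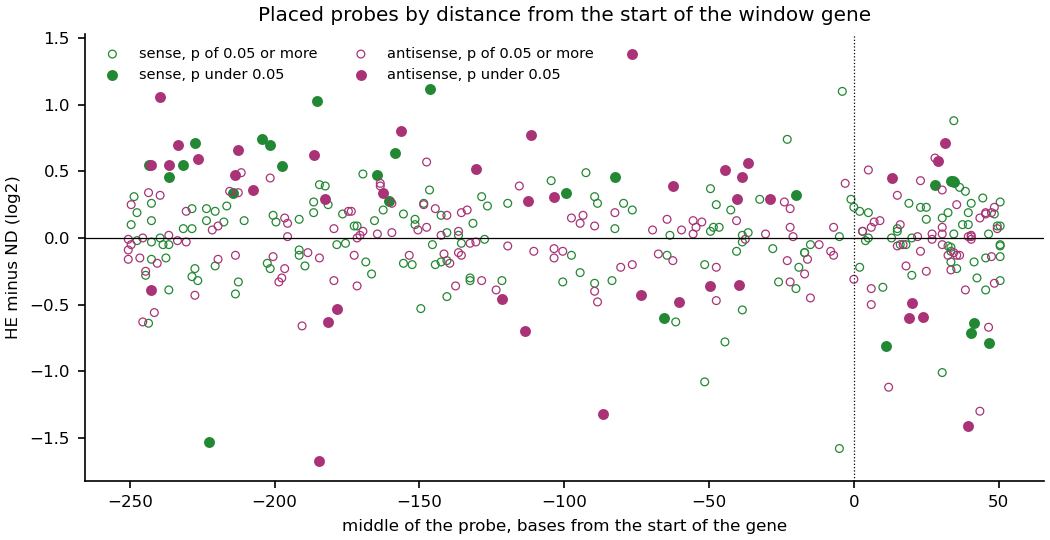
Each point is a tested placed probe, plotted by the distance of its middle from the start of the window gene in bases (negative before the start) and by its HE minus ND difference on the log2 scale. Colour gives the strand, and filled points mark the 45 higher and 22 lower probes at an unadjusted limma p under 0.05.

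The largest difference among the higher placed probes belonged to A_55_P2132608, which lies in the windows of both Fbxl18 and the long non-coding gene Gm38733. Fbxl18 codes for an F-box protein of a ubiquitin ligase, and the probe reads the strand opposite to it, 1377 bases inside the bounds RefSeq lists for the gene. It reads the strand of Gm38733 but lies outside that gene's listed bounds. Its levels were -1.52, -1.79 and -2.03 on the ND arrays and -0.33, -0.40 and -0.46 on the HE arrays. The HF arrays had -1.35, -0.58 and -1.14. Every HE array lay above every ND array, and the difference was 1.38 ± 0.21 (SE, n = 3 per group; limma adjusted p = 0.156). Only 1 of 3 ND arrays was well above background, and the normexp background correction, which compresses dim signals, gave 0.57.

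A probe placed on the strand opposite to Plxna2, the gene of a semaphorin receptor, was also higher in HE. Probe A_30_P01024337 lies upstream of the gene, outside any RefSeq gene, and its levels were 0.96, 1.34 and 1.19 in ND and 2.13, 2.59 and 1.94 in HE. The HF arrays, at 1.32, 1.82 and 1.65, had a mean of 1.60 between those of ND (1.16) and HE (2.22). It was well above background on all 9 arrays, the 2 groups did not overlap, and the difference was 1.06 ± 0.20 (SE; adjusted p = 0.157). It was 0.83 after normexp and 0.77 with slide as a block.

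Upstream of Ranbp17, which codes for a nuclear import receptor of the importin family, probe A_30_P01027940 on the gene's own strand had levels of -1.33, -1.27 and -1.17 in ND and -0.56, -0.25 and -0.74 in HE. The 3 HF arrays lay between -0.97 and -0.78, above every ND array and below every HE array. The difference was 0.74 ± 0.15 (SE; adjusted p = 0.157), with 0.36 after normexp. Upstream of Med31, which codes for a subunit of the Mediator complex, probe A_51_P372156 reads the opposite strand, inside the gene 4930563E22Rik. Its levels averaged -0.43 ± 0.16 in ND and 0.37 ± 0.18 in HE (SD, n = 3 each), without overlap. Its difference of 0.80 was 0.47 after normexp and 0.30 with slide as a block, and mmu_8540_PI428980890 on the same strand of that window differed by 0.32 ± 0.20 (SE).

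Opposite to Cdr1 lies a transcript region known as the source of a circular RNA that binds the microRNA miR-7. Probe A_55_P2025655 reads that strand at chrX:61185640-61185699. The files do not say if it measures the circular RNA, and it is given here only as a probe at this position. The sequence is shown with the letters GTCTTCC, the complement of the miR-7a-5p seed, in capitals, and the microRNA is shown with its seed (bases 2 to 8) in capitals.
Probe opposite to Cdr1: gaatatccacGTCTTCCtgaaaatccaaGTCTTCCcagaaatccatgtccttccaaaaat
mmu-miR-7a-5p: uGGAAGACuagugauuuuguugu
The letters occur in 463 of 91188 probes (0.508%), searched on the probe's strand only, and 3 probes hold them at 2 places. Its levels were 2.86, 3.27 and 3.29 in ND, 3.83, 3.46 and 3.92 in HF and 4.10, 3.73 and 3.90 in HE. Both high fat groups lay above all ND arrays, and HE exceeded ND by 0.77 ± 0.18 (SE; adjusted p = 0.163), with 0.92 under the slide block and 0.65 after normexp. The other 2 probes with the letters at 2 places, mmu_1051_PI428960544 and mmu_15_PI428960544, differed by -0.02 and -0.11. Of the 313 tested probes that hold the letters, 8.31% were higher and 5.75% lower, near the shares of all probes.

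**Figure D3:**
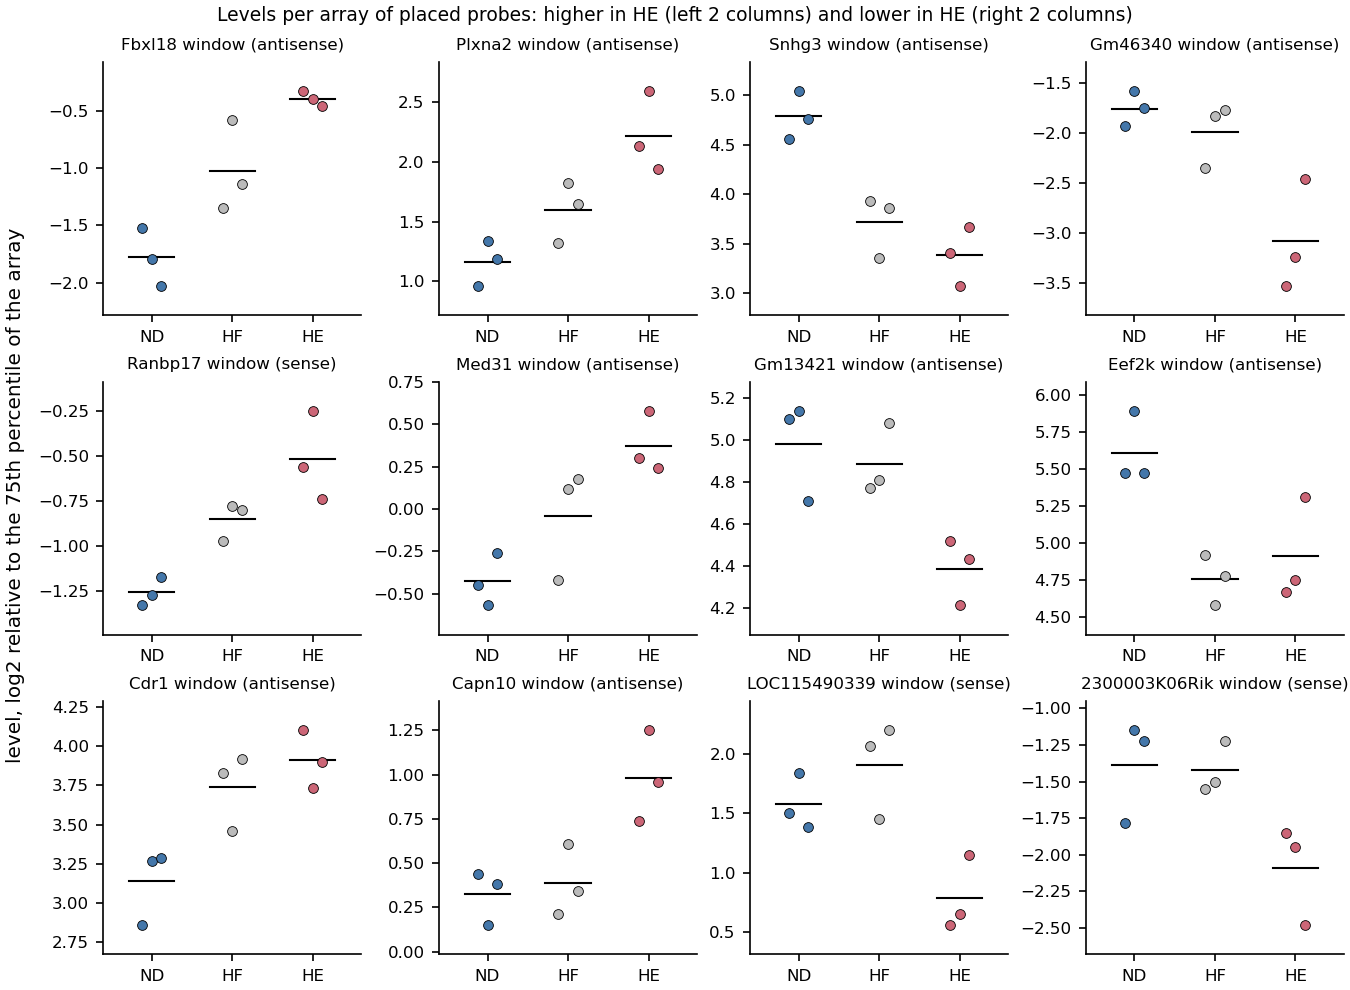
Each panel shows the 9 arrays for 1 placed probe, as the log2 level above or below the array's 75th percentile, with a line at the group mean; the vertical scales differ between panels. The 6 panels on the left are the higher placed probes with the smallest unadjusted p and those on the right the lower ones, and in each of the 12 the 3 ND and 3 HE arrays do not overlap.

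Capn10 codes for a calpain protease whose variants have been linked to type 2 diabetes. Probe A_55_P2046897 reads the strand opposite to it, upstream of its start. The place lies within the long non-coding gene 9430060I03Rik, whose strand is not listed. That probe had 0.44, 0.15 and 0.38 in ND, 0.21, 0.61 and 0.34 in HF and 0.74, 1.25 and 0.96 in HE. HE lay above all ND and HF arrays, and the difference from ND was 0.66 ± 0.17 (SE; adjusted p = 0.174), with 0.41 both after normexp and with slide as a block. Pdpk1 codes for PDK1, the kinase that activates Akt downstream of the insulin receptor. Probe A_55_P2014361 falls in the window of its neighbour Kctd5, but its placed bases end 3 bases before the end of Pdpk1 on the same strand, and it holds AATAAA. Its levels were -1.24, -1.16 and -1.83 in ND and -0.74, -0.67 and -0.70 in HE. The difference was 0.71 ± 0.20 (SE; adjusted p = 0.189), with 0.31 after normexp and 0.42 with slide as a block. Probe mmu_26989_PI428960544, which shares at least 25 bases with it, differed by 0.26 ± 0.16 (SE).

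Ndufb11 codes for a subunit of mitochondrial complex I and starts head to head with Rbm10, the gene of a splicing regulator. Probe A_55_P2073582 is opposite to Rbm10 and its placed bases begin 67 bases into Ndufb11 on that gene's strand. Its levels averaged -1.48 ± 0.38 in ND and -0.77 ± 0.21 in HE (SD, n = 3 each), without overlap, and the HF mean was -0.79. The other complex I subunits with a placed probe lay nearer to 0, at 0.07 for Ndufa9, 0.25 for Ndufa11 and 0.10 for Ndufa13, so 1 of 4 had an unadjusted p under 0.05, as did 14.7% of all tested probes. After normexp the Ndufb11 probe differed by 0.28. Of 704 genes in 28 lists of pathways and cell types, 13 had a placed probe, and no list can be described as a group. In the insulin signalling list 1 of 2 tested genes, Pdpk1, had an unadjusted p under 0.05 (14.7% of all tested probes), and the Shc1 probe (an adaptor of the insulin receptor) differed by -0.05 ± 0.14 (SE). Etfb, an electron carrier of fatty acid oxidation, differed by 0.27 ± 0.29 (SE) and Tm7sf2, an enzyme of cholesterol synthesis, by -0.17 ± 0.16 (SE). Eno3, a muscle enolase and the 1 muscle marker, differed by -0.19 ± 0.15 (SE).

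The single blood marker was Hbb-bs, the gene of a haemoglobin beta chain. Its probe had levels of 1.49, 0.51 and 1.59 in ND, 1.17, 0.66 and 2.26 in HF and 1.93, 2.29 and 2.01 in HE. The HE arrays lay above the ND arrays by 0.88 ± 0.41 (SE; limma unadjusted p = 0.058, adjusted p = 0.359). The part of blood cells in the other results was not tested. In tissue RNA such as this, a change in the number of cells of a type and a change in RNA per cell cannot be told apart.

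The remaining higher placed probes were Plce1, Exoc7, 5930403N24Rik and one opposite to Tmem267. Plce1 codes for a phospholipase C and Exoc7 for a subunit of the exocyst. In HE the Plce1 probe exceeded ND by 0.70 ± 0.20 (SE), and its mean was -0.68, against -0.53 in HF; after normexp the difference was 0.33. Probe A_55_P2183035 upstream of Exoc7 stood apart from both other groups: its levels were -1.56, -2.60 and -2.28 in ND, -1.92, -2.73 and -2.55 in HF and -1.36, -0.82 and -1.18 in HE. It was well above background on all 3 HE arrays but on 1 ND and 0 HF arrays, so it was kept for testing only through the HE arrays. Its difference from ND of 1.03 ± 0.30 (SE) was 0.34 after normexp and 1.78 with slide as a block. The 5930403N24Rik probe overlapped between groups and differed by 0.64, and the one opposite to Tmem267, inside the long non-coding gene 3110070M22Rik, differed by 0.62. The latter was 0.35 after normexp and 1.17 with slide as a block.

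The lower placed probes were led by one on the strand opposite to Snhg3, a non-coding gene whose introns give rise to small nucleolar RNAs. Probe A_30_P01022304 begins 10 bases after the start of Snhg3 and reads the other strand. Its levels were 4.56, 5.04 and 4.76 in ND, 3.93, 3.35 and 3.86 in HF and 3.40, 3.07 and 3.67 in HE. The probe was well above background on all arrays, both high fat groups lay below every ND array, and HE was lower than ND by -1.41 ± 0.22 on the log2 scale (SE; adjusted p = 0.156). The value was -1.43 after normexp, -1.23 with slide as a block and -1.55 to -1.25 with 1 array left out. HE minus HF was -0.33.

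Another bright probe, A_30_P01030278 opposite to the long non-coding gene Gm13421, had 5.10, 5.14 and 4.71 in ND, 4.77, 4.81 and 5.08 in HF and 4.52, 4.21 and 4.43 in HE. Here HE lay below all ND and HF arrays, and the difference from ND was -0.60 ± 0.16 (SE; adjusted p = 0.184). A second probe on the same strand of that window, A_30_P01019574 at chr2:27540255-27540314, differed by -0.12 ± 0.14 (SE). Eef2k codes for the kinase of translation elongation factor 2. Probe A_66_P107174 lies opposite to it, inside the long non-coding gene Gm36449, and had 5.47, 5.89 and 5.47 in ND and 4.67, 4.75 and 5.31 in HE, with an HF mean of 4.76. The difference was -0.70 ± 0.20 (SE). Probe mmu_27189_PI428960544, which shares at least 25 bases with it on the same strand, was too dim to be tested. Its means were -2.23 in ND, -2.29 in HF and -2.46 in HE, and which transcript gives the bright signal was not tested. Probe mmu_33268_PI428960544, at the last bases of the long non-coding gene Gm30551, averaged 6.81 ± 0.21 in ND and 6.22 ± 0.24 in HE (SD, n = 3 each), and 6.19 in HF; the difference of -0.60 was -1.06 with slide as a block.

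The probe opposite to Gm46340, A_30_P01033033, was well above background on all 3 ND arrays, 2 HF arrays and no HE array. Its levels were -1.93, -1.58 and -1.75 in ND and -3.53, -3.24 and -2.46 in HE. On the processed signal HE was at least 1.8-fold lower (limma adjusted p = 0.159). This bound sets each HE array at the dimmest signal that still counted as detected, or at the probe's own where higher. It does not hold after normexp, where the log2 difference of -1.32 became -0.21. With slide as a block the difference was -2.19. Probes A_30_P01020953 and A_30_P01031650, which share at least 25 bases with it, differed by -0.48 and -0.32, and signal from such copies cannot be told apart. The Phtf1 probe A_55_P2125223 and the probe opposite to Gm42023, A_55_P2154809, also had no HE array well above background. They were well above background on 1 and 0 HF arrays. Like the probe opposite to Gm46340, both were kept for testing only through the ND arrays, where they are high. The p-values of these 3 probes are therefore no independent support for a difference. On the processed signal the same bound gave at least 2.22-fold and at least 2.14-fold lower levels (limma adjusted p = 0.243 and 0.251). It does not hold after normexp, where the log2 differences were -0.41 and -0.40. The probe opposite to Gm42023 lies inside the protein-coding gene Morn3, on that gene's own strand. Probe A_55_P2021423, which shares sequence with A_55_P2154809 on the same strand, differed by -0.32 ± 0.35 (SE). For the Phtf1 probe the lower level followed the slides. HF replicate 1, on the slide of the ND arrays, had -0.88, and HF replicates 2 and 3 had -2.93 and -2.70. The slide block gave a difference of 0.12.

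LOC115490339 was lower in HE than in both other groups. Its probe A_55_P1966823 had 1.50, 1.84 and 1.39 in ND, 2.07, 1.45 and 2.20 in HF and 0.56, 0.65 and 1.15 in HE. The difference from ND was -0.79 ± 0.24 (SE; adjusted p = 0.211). The 2300003K06Rik probe differed by -0.71 and the Gm52617 probe, which overlapped between groups, by -0.81. After normexp they differed by -0.13 and -0.18, and without HE replicate 1 the Gm52617 probe differed by -0.48. Opposite to Tanc2, which codes for a scaffold protein, the difference was -0.63, with -0.99 under the slide block. Gstm6, a glutathione S-transferase, was lower than ND by -0.64 ± 0.27 (SE) in HE, and its HF mean was lower still, at -1.79 against -1.45 in HE and -0.81 in ND. The Gstm6 difference was -0.22 after normexp and -1.58 with slide as a block.

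MicroRNA hairpins were matched on either strand. A probe on the opposite strand, such as that of Mir18 or Mir760, does not read the precursor if it reads in the sense of its transcript. For A_30_P probes, such as that of Mir18, the polyadenylation letters say little about the strand. Both strands together gave 34 probes for 25 microRNA genes, and 19 of the 34 probes were tested. At an unadjusted p under 0.05, 2 were higher and 0 lower, beside 7.83% and 6.89% of all tested probes, and the median difference was -0.0486, beside -0.0174. The Mir6516 probe mmu_905_PI428960544, which lies wholly within the hairpin, had 1.09, 0.76 and 1.11 in ND and 1.62, 1.74 and 1.67 in HE. The difference was 0.69 ± 0.15 (SE; adjusted p = 0.159), and the HF mean of 1.22 lay between. With arrays scaled to the E1A spike-in probes the difference was 0.20. A probe on the opposite strand of the same hairpin, A_30_P01026685, differed by -0.13 ± 0.15 (SE), with -0.40 under the slide block. The Mir410 probe A_30_P01029937 contains the whole of the mature miR-410-3p and had 0.55, 0.27 and 0.55 in ND and 0.92, 0.88 and 0.73 in HE. Its difference of 0.39 ± 0.15 (SE; adjusted p = 0.306) was 0.20 after normexp and turned to -0.10 when arrays were scaled to the E1A spike-in probes. The mature forms are shown with the seed in capitals. A 60-base probe of this kind can read the longer precursor or host transcript as well, so these levels are not levels of mature microRNA.
mmu-miR-410-3p: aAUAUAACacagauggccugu
mmu-miR-6516-5p: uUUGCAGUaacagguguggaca

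Mir410 and Meg3 belong to one imprinted cluster on chromosome 12, in which Meg3 is the maternally expressed long non-coding RNA. The Meg3 probe mmu_12685_PI428960544, named after its values were seen, had -1.99, -1.67 and -1.48 in ND, -1.25, -1.50 and -1.68 in HF and -1.14, -1.12 and -1.23 in HE. HE lay above all ND arrays by 0.55 ± 0.16 (SE; adjusted p = 0.207), with 0.22 after normexp and 0.92 with slide as a block. Under spike-in scaling the Meg3 difference was 0.06. Other probes named after their values were seen lie in known genes: a Zeb2 probe (a zinc finger repressor) was well above background on 0 of 3 ND and 2 of 3 HE arrays. It differed by 1.12 ± 0.26 (SE), with 0.39 after normexp and 0.63 with slide as a block, and ND has only a bound. Another lies inside Numb, the gene of a Notch inhibitor, and differed by 0.29, with -0.19 under spike-in scaling, 0.12 with GC bin medians removed, 0.18 after normexp and 0.50 with slide as a block. The last, in Alkbh1 and opposite to Slirp, differed by 0.52 with overlapping groups, by 0.24 after normexp and by 0.03 under spike-in scaling. Its neighbour A_55_P2129608 on the same strand differed by 0.08 ± 0.16 (SE).

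Only 395 of the 43947 tested probes were placed at 1 position, so most probes have no place whether they differ or not. With a difference of 1 (log2) or more and detection on all arrays of the higher group, 242 higher and 359 lower candidates have no place. No p-value was required of them. Without the detection rule, 327 of all tested probes were higher and 404 lower by that much. The higher candidates had to be detected on HE replicate 2, which had 36.6% of probes well above background. The 3 named by the rule are printed so that they can be looked up, with AATAAA in capitals where it occurs.
mmu_17512_PI428960544: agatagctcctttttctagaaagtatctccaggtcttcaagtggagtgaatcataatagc
A_55_P2027995: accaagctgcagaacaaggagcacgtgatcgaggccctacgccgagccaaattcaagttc
mmu_34676_PI428960544: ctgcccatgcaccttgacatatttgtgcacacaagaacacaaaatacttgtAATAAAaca
On single arrays, A_55_P2027995 had 0.69, 0.86 and 0.42 in ND, 0.89, 1.47 and 1.21 in HF and 1.86, 2.25 and 2.03 in HE. mmu_17512_PI428960544 had -2.58, -3.13 and -2.38 in ND and -0.61, -0.80 and -0.42 in HE. mmu_34676_PI428960544 had -1.27, -0.83 and -1.11 in ND and -2.68, -2.25 and -2.61 in HE, and the HF mean of -1.39 lay near that of ND. Both are dim: after normexp mmu_17512_PI428960544, well above background on 1 of 3 ND arrays, differed by 0.74 in place of 2.09 and mmu_34676_PI428960544 by -0.31 in place of -1.44. In each of the 3 the groups did not overlap.

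The base composition of a probe went with the direction of its difference. Among the 164 tested probes with up to 30% GC, 25% were lower in HE at an unadjusted p under 0.05 and 1.83% higher, with a median difference of -0.29. Among the 4122 probes between 55% and 60% GC, 2.62% were lower and 10.5% higher, with a median of 0.0646. Above 60% GC the shares were 9.89% lower and 9.47% higher. Over probes detected on all arrays, the median level of those above 50% GC minus that of those up to 35% was 0.57, 0.78 and 0.70 on the ND arrays, 0.63, 0.75 and 0.70 on the HF arrays and 0.87, 0.93 and 0.78 on the HE arrays. HE exceeded ND by 0.18 (two-sided exact permutation p = 0.1, the smallest that 3 against 3 arrays allow), although the lowest HE array, on slide 3, and the highest ND array both round to 0.78. Over all tested probes the gap differed by 0.19 with overlapping groups (exact permutation p = 0.2), and after normexp by 0.09. The named placed probes lie between 38.3% and 81.7% GC, and with the median of each GC bin removed on each array the higher ones differed by 0.57 to 1.29 and the lower ones by -1.62 to -0.62.

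**Figure D4:**
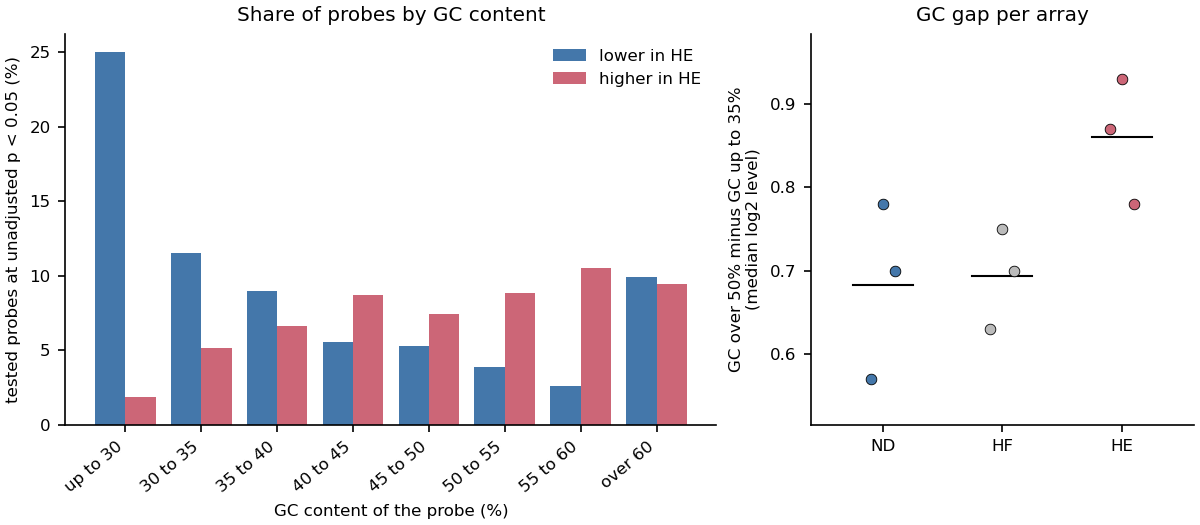
On the left, bars give the percentage of tested probes lower and higher in HE at an unadjusted limma p under 0.05, by GC content. On the right, points give for each array the median log2 level of probes above 50% GC minus that of probes up to 35% GC, over probes detected on all arrays, with a line at the group mean; the HE arrays lie at 0.78 to 0.93 and the ND arrays at 0.57 to 0.78.

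Other measures were compared between the groups as well. The probes well above background on all 3 ND arrays and no HE array numbered 174, and 13 showed the reverse. With each array left out in turn, and the rule applied to those left, the numbers were 177 and 372 without HE replicate 2. Without any one of the other 5 arrays the first was 236 to 824 and the second 20 to 38, so the order turned only without HE replicate 2. The 3′ minus 5′ level of the Pgk1 control probes, a sign of RNA length, was 2.47, 2.47 and 2.26 in ND and 2.10, 1.96 and 2.19 in HE, a difference of -0.32 (exact permutation p = 0.1). That of Gapdh differed by 0.02 (exact permutation p = 0.9). With GC bin medians removed on each array, 3303 probes were higher and 3010 lower at an unadjusted limma p under 0.05, in place of 3439 and 3029. Beyond this, the part of GC content in the differences was not tested, nor was that of RNA length.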

How the data were processed

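Aorta RNA (0.2 µg) was amplified, labelled with Cy3 and put on Agilent arrays with 1 colour (labels' protocols). Scanning used Agilent Feature Extraction, version 10.7.1.1 in the submitters' processing notes. The authors deposited a linear intensity per spot, which per the file headers is background-subtracted and detrended. They also deposited a table of log2 values, used as an alternative. Outlier-flagged and control spots were left out. The log2 processed signal was averaged per probe, minus the array's 75th percentile; probes well above background on at least 3 of 9 arrays were kept. A single fit over 9 arrays used limma 3.58.1 (R 4.3.3) with Benjamini-Hochberg adjustment. On simulated HE against ND data over 43947 probes, 61% of 2-fold and 94% of 4-fold changes passed, with 9 false calls. The simulated noise was independent between arrays, with the fitted spread and without slide or array effects. These shares are therefore not the power of the real comparison.

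The planned naming through RefSeq proteins was not possible, and promoter windows were used instead, chosen after the files were seen; 200 of 200 planted matches were found. The naming rule took the 12 placed probes per direction described in the report and up to 2 unplaced per direction; 1 probe is not reported here. Probes and lists were chosen with earlier results of these data known. Alternatives were background correction, scaling, filter, prior, weights, blocks, the authors' table and single arrays left out; removal of GC bin medians, and detection counts with each array left out, were added after seeing the data.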

Additional observations from a re-analysis of the deposited data

Results flagged for a closer look

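The mean level of the 4 bright E1A spike-in probes, control sequences added to each RNA at labelling, lies outside the comparisons of the report and was higher in HE than in ND by 0.49 (log2). It was 3.46, 3.19 and 3.19 on the ND arrays and 3.81, 3.75 and 3.74 on the HE arrays (two-sided exact permutation p = 0.1, as low as 3 against 3 arrays can give), and 3.37 ± 0.01 (SD, n = 3) in HF. The levels are relative to the 75th percentile of each array, so an unequal change of spike-in and aorta RNA is all that they show.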

How the results depend on the processing

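An adjusted p under 0.05 was reached by 0 probes in all settings but 2. The normexp background correction gave 1 probe, A_55_P2065754, which has no place, was looked at after its value was seen, and differed by -1.53 (adjusted p = 0.0143; -1.51 and 0.156 otherwise). Scaling to the E1A spike-in probes gave 19052. It shifted the median difference of all probes by -0.488, to -0.505, and the split at an unadjusted p under 0.05 was 176 higher and 24729 lower in place of 3439 and 3029. Under that scaling the Mir410 probe turned to -0.10 and the probe in Numb to -0.19. Of the 34 named probes 17 passed the adjusted threshold, beside 19052 of all 43947 tested probes. Among the 17 were those opposite to Snhg3 (-1.89) and Fbxl18 (0.89). The shift applies to all probes, so the count of 17 says nothing particular about the named ones. With slide as a fixed block 1329 probes were higher, and the Phtf1 probe turned to 0.12. Requiring a 2-fold difference as well left 277 higher and 298 lower. Leaving out 1 array gave 0 probes at an adjusted p under 0.05 each time, 2366 to 3817 higher and 1926 to 4201 lower at an unadjusted p; the lowest numbers were those without HE replicate 2. Of 701 values of named probes in the 21 alternatives, 681 kept their direction and their side of the threshold.

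The replicate numbers are not said to pair animals. After removal of group means, same-numbered ND and HE arrays correlated at 0.0357, 0.137 and -0.197. The highest correlations with other numbers were 0.264, -0.0524 and 0.174, and with 3 arrays per group such values cannot settle the pairing. The replicate block gave 0 probes at an adjusted p under 0.05, with 3027 higher and 2463 lower at an unadjusted p under 0.05. Gene lists were not recomputed, since at most 4 genes of a list had a placed probe. Arrays were not sequenced and have no depth; dim probes limit what can be read, as their processed and normexp differences are unequal, such as -1.32 and -0.21 opposite to Gm46340.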
